A study of Rattus norvegicus with 24 samples.

Results

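The mRNA levels of 10 genes of tumor necrosis factor (TNF), interleukin 1 and NF-kB signaling were examined in the lungs of hexanal-exposed rats. The genes were chosen by symbol: Tnf, Il1a, Il1b, Il6, Il18, Il1rn, Tnfrsf1a, Tnfrsf1b, Nfkb1 and Rela. Of these 10 genes, 9 were matched to a probe, as were 15443 gene symbols in all, and 8 were bright enough to be among the 21255 genes or unnamed probes tested. No probe was matched to Nfkb1, which encodes the p50 subunit of NF-kB, so it has no value here. Fischer-344 rats, obtained at 7 to 8 weeks of age, inhaled filtered clean air (control) or hexanal, an aldehyde found in indoor air, at 600, 1000 or 1500 ppm. Each group held 6 rats, 3 males and 3 females, and whole-lung RNA of each rat was hybridized alone with Cy3 on a one-colour Agilent rat array. The sample titles give the doses in ppm, while the treatment text of the labels gives mg per cubic meter and 5 weeks of exposure for 4 h per day on 5 days per week; the study's methods give ppm and a shorter exposure.

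TNF and interleukin 1 are alarm cytokines of the lung, released mainly by macrophages and other myeloid cells and, for interleukin 1 alpha, also by injured epithelium. Their receptors act through adaptor proteins and the IKK kinases, which mark the inhibitor IkB-alpha for destruction and let NF-kB dimers such as p50 and RelA enter the nucleus, where they switch on further cytokine, adhesion and feedback genes. Interleukin 1 beta and interleukin 18 are cut from inactive precursors by caspase 1, and the receptor antagonist encoded by Il1rn blocks both forms of interleukin 1.

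A level is the log2 signal of a probe less the log2 of the array's 75th percentile, so that 0 is the level of that percentile. The 75th percentile lay between 1701 and 3133 signal units over the 24 arrays, the share of probes well above background between 70.7% and 81.8%, and no spot was saturated. The arrays lay on 6 slides of 4 arrays with 1 sex each, and the control rats shared no slide with the 1000 ppm or the 1500 ppm rats. The 6 lung epithelium markers, among them the surfactant gene Sftpc, were tested on this array, and their summed level had a median of 596.6 in the control group and between 563.6 and 572.3 in the 3 dose groups, in units of the 75th percentile. Heart muscle markers were spread widely, with sums from 3.229 to 24.09 in control lungs and from 7.484 to 90.03 at 1000 ppm, where 3 of 5 were called higher, as were 2 of 3 skeletal muscle markers and 1.29% of all genes. The part of such admixed tissue in the levels of the 8 genes was not tested, and in whole lung fewer cells of a type and less RNA per cell cannot be told apart.

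The sequences before the transcription starts of 4 of the cytokine genes are shown because Il1a and Il1b lie next to each other with 0 annotated genes between them and are compared with each other here, and because Tnf and Il6 are the other classical cytokines of the set. The sequences are the 250 bases before the start in RefSeq's rat assembly GRCr8, read 5′ to 3′ on the gene's strand, at chr20:3626435-3626684 (plus strand, Tnf), chr3:136990018-136990267 (minus strand, Il1a), chr3:137036582-137036831 (minus strand, Il1b) and chr4:5894576-5894825 (minus strand, Il6). Capitals mark matches, on either strand, to 3 motifs: the TATA box TATAAA, the AP-1 motif TGANTCA and the NF-kB consensus.
Tnf: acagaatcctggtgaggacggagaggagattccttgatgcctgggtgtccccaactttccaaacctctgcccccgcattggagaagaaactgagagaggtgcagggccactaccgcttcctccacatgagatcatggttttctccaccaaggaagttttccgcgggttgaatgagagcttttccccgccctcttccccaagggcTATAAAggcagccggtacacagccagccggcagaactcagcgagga
Il1a: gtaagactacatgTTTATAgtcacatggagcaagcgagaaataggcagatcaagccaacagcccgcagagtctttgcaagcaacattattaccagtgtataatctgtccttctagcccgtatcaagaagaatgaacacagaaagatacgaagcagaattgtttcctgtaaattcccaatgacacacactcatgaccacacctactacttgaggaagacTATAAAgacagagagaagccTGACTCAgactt
Il1b: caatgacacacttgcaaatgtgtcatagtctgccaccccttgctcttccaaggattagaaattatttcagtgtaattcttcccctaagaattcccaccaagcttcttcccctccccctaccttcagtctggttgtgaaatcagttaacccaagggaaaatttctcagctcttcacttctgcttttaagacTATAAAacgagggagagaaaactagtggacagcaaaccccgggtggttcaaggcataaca
Il6: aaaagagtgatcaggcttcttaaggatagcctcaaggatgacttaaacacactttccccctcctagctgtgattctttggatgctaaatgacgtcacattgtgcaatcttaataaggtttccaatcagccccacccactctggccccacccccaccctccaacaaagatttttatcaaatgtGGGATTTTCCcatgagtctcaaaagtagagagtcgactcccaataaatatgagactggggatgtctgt
A TATA box match was present from 46 to 41 bases before the start of Tnf, from 32 to 27 bases before that of Il1a and from 60 to 55 bases before that of Il1b. Il1a also held a second one, written TTTATA on this strand, and an AP-1 match, TGACTCA, from 12 to 6 bases before its start. The one match to the NF-kB consensus among the 10 genes was GGGATTTTCC, from 68 to 59 bases before the start of Il6. Over the 33469 promoters of the table, 12.9% held the TATA box, 6.34% the AP-1 motif and 6.33% the NF-kB consensus in the same window. Among the 10 genes, 4 held the TATA box, 2 the AP-1 motif and 1 the NF-kB consensus. These are matches of letters, not measured binding sites, and longer windows were not searched.

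None of the 8 measured genes passed the call rule of at least a 1.5-fold change with an unadjusted limma p-value under 0.05 at any dose. Over all genes tested the same rule called 0.616% at 600 ppm, 1.64% at 1000 ppm and 1.22% at 1500 ppm. The number of the 8 genes with an unadjusted limma p-value under 0.05, whatever the fold change, was 0 at 600 ppm, 1 at 1000 ppm and 1 at 1500 ppm, against 4.33%, 8.99% and 6.97% of all genes, and at both doses that gene was Il1a. No member had a Benjamini-Hochberg adjusted p-value under 0.05, a threshold that 0%, 0.0188% and 0.0047% of all genes passed. The 3 comparisons use the same 6 control rats, so they are not independent of each other.

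**Figure D1:**
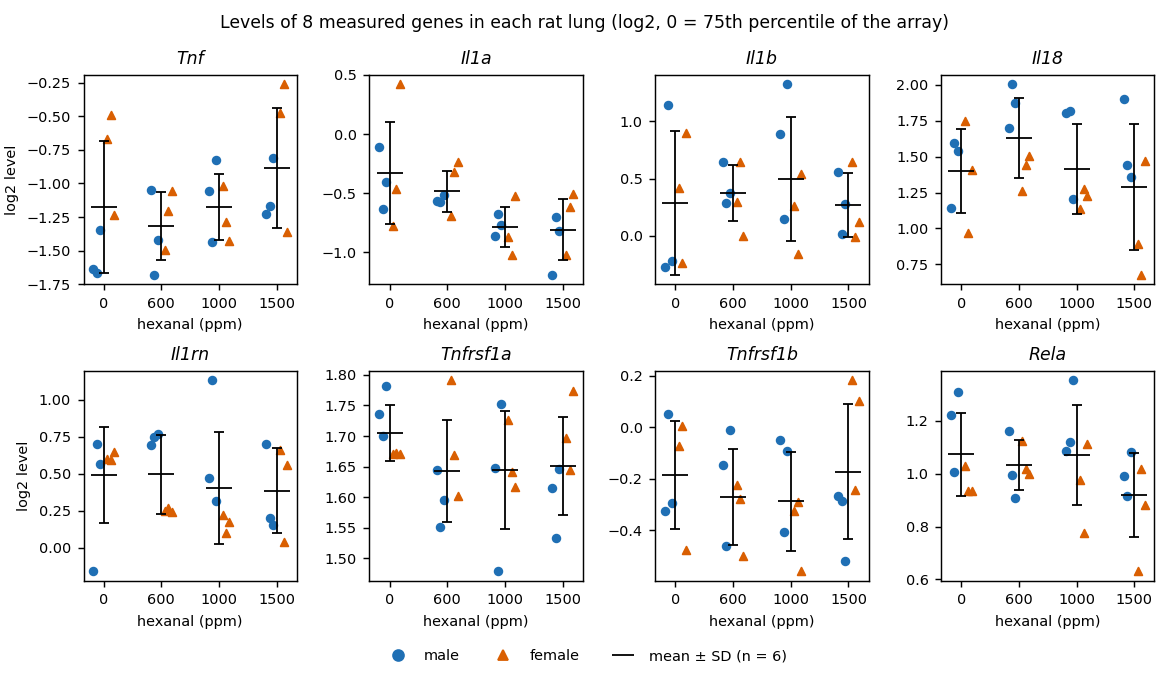
Log2 level (y axis, 0 is the 75th percentile of the array) of the 8 measured genes in each of 24 rats by hexanal dose (x axis, ppm); circles are males, triangles females, bars the mean and SD of 6 rats. The Il1a means at 1000 and 1500 ppm, -0.79 and -0.81, lie below the control mean of -0.33. Dose and control values overlap in all 8 genes.

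Il1a, which encodes interleukin 1 alpha, had its lowest mean levels at 1000 and 1500 ppm. The level in the 6 control rats ranged from -0.78 to 0.42 with a median of -0.44. At 600 ppm it ranged from -0.69 to -0.24 (median -0.54), at 1000 ppm from -1.02 to -0.52 (median -0.81) and at 1500 ppm from -1.19 to -0.51 (median -0.76). The groups overlapped, but 6 of 6 rats at 1000 ppm and 6 of 6 at 1500 ppm lay below the control median, and 3 of 6 lay below every control rat at each of these doses. The share of all genes with such partial counts, here and for the genes below, was not counted.

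Set against the control mean of -0.33 ± 0.43 (SD, n = 6), the Il1a difference was -0.16 at 600 ppm (SE 0.16, limma adjusted p = 0.9969), -0.46 at 1000 ppm (SE 0.16, limma adjusted p = 0.5155) and -0.48 at 1500 ppm (SE 0.16, limma adjusted p = 0.4974). The 1500 ppm level thus was 0.716 times the control level, with a 95% confidence interval of the log2 difference from -0.81 to -0.16. An exact permutation test, two-sided over 924 assignments of 6 rats against 6, gave p = 0.478, p = 0.0216 and p = 0.0303 for the 3 doses, where the smallest p this design can give is 0.00216. These were among 24 exact tests of 8 genes at 3 doses, 2 of which were under 0.05. Il1a was measured by 8 to 10 replicate spots on each array. The SD among these spots had a median of 0.062, whereas the SD between rats within groups was 0.28.

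The difference did not rest on 1 sex: at 1500 ppm it was -0.52 in males and -0.44 in females. Read from its brighter probe, Il1a had the lower mean at the higher dose on each of the 6 slides, by between -0.14 and -0.67. Each slide holds rats of 2 dose groups, and some of these means are of 1 rat. The highest control value, 0.42, belonged to the female control rat 23. Without this rat the difference was -0.31 at 1000 ppm (exact permutation p = 0.0368) and -0.33 at 1500 ppm (exact permutation p = 0.0606). With the slide as a fixed block, which ties control to the high doses only through the 600 ppm and 1000 ppm rats, the differences were -0.75 and -0.91 (limma adjusted p = 0.9989 and 0.9829), past the call rule.

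A second, dimmer probe of Il1a was above background on all 24 arrays and gave larger differences. Its level had a median of -2.44 in control rats (from -3.35 to -1.82), -3.25 at 600 ppm (from -3.61 to -2.55), -3.35 at 1000 ppm (from -3.78 to -3.15) and -3.36 at 1500 ppm (from -3.49 to -2.75). All 6 rats of each dose group lay below the control median. On the slides shared by 1000 and 1500 ppm rats, its 1500 ppm means were the higher ones, -3.42 in males and -2.97 in females. The 1000 ppm rats on those slides, 13 and 33, had -3.66 and -3.78. When each probe was fitted separately, an alternative added after the values were seen, the differences were -0.65, -0.92 and -0.68 (SE 0.21 each). All 3 passed the call rule, which called 0.622%, 1.6% and 1.26% of the 23616 probes at these doses, and none had a limma adjusted p-value under 0.05 (0.9983, 0.3981 and 0.468). The exact permutation p was 0.0368, 0.00866 and 0.0325. Without control rat 23, again the highest control rat, it was 0.0714, 0.00866 and 0.0649.

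The 2 probes gave the same direction at every dose, but they did not order the single rats alike. Over 24 rats their levels had a Pearson r of 0.47 (permutation p = 0.0224) and a Spearman rho of 0.27 (permutation p = 0.208). Without the 2 rats farthest from the median of the brighter probe r was 0.14. The value of r thus depended on those rats, although leaving out extreme rats narrows the range and can itself lower r.

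**Figure D2:**
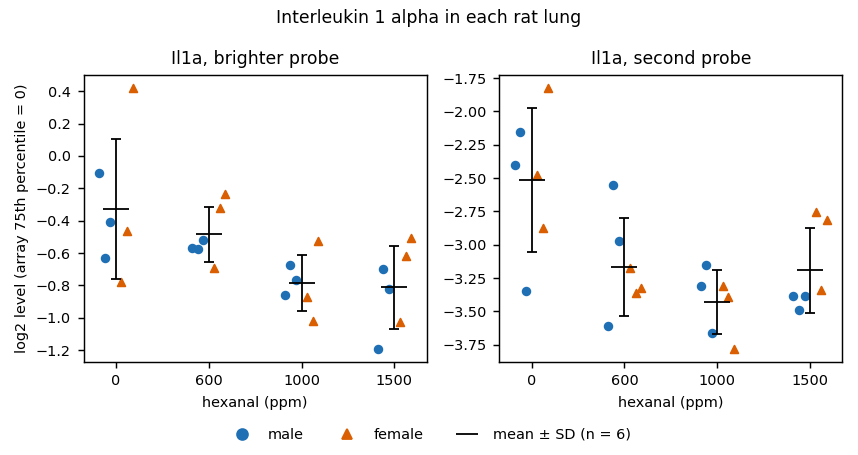
Log2 level of Il1a (y axis) in each rat by hexanal dose (x axis, ppm) for the brighter probe (left) and the second probe (right); circles are males, triangles females, bars the mean and SD of 6 rats. In both panels all rats at 1000 and 1500 ppm lie below the control median, and the highest control point is the same female rat.

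Il1b, the gene of interleukin 1 beta and the neighbor of Il1a, did not pass the test at any dose. Its level was from -0.28 to 1.14 in control rats (median 0.10), from -0.0041 to 0.65 at 600 ppm (median 0.33), from -0.17 to 1.33 at 1000 ppm (median 0.40) and from -0.0088 to 0.65 at 1500 ppm (median 0.20). The groups overlapped, and 1 male rat at 1000 ppm lay above every control rat. The differences from control were 0.09, 0.21 and -0.02 (SE 0.25 each, exact permutation p = 0.753, 0.543 and 0.939), with a 95% confidence interval at 1500 ppm from -0.54 to 0.50. The difference at 1500 ppm with the slide as a fixed block was -0.52 (SE 0.60, limma adjusted p = 0.9829). Il1b varied most between rats of 1 group among the 8 genes, with an SD of 0.46, while its 10 spots on an array had a median SD of 0.051. The change of Il1a less that of Il1b, compared after the values were seen, was -0.67 at 1000 ppm (exact permutation p = 0.115) and -0.46 at 1500 ppm (exact permutation p = 0.232) with the brighter probe of Il1a. With the second probe it was -1.13 (exact permutation p = 0.00433) and -0.66 (exact permutation p = 0.0108).

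Il1rn, the gene of the interleukin 1 receptor antagonist, had means of 0.49 ± 0.32, 0.50 ± 0.27, 0.40 ± 0.38 and 0.39 ± 0.29 (SD, n = 6 each) in the control, 600, 1000 and 1500 ppm groups. The differences were 0.00, -0.09 and -0.11 (SE 0.18 each), within the spread of the rats. Male and female rats were spread differently in this gene, as described with the sexes.

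Il18, the gene of interleukin 18, was from 0.97 to 1.75 in control rats (median 1.47), from 1.26 to 2.01 at 600 ppm (median 1.60), from 1.14 to 1.82 at 1000 ppm (median 1.25) and from 0.68 to 1.91 at 1500 ppm (median 1.40). The differences were 0.23, 0.01 and -0.11 (SE 0.19 each, exact permutation p = 0.197, 0.944 and 0.615). The interval at 1500 ppm was from -0.50 to 0.28.

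Il6, a cytokine gene induced by interleukin 1 and TNF, was not well above background on any of the 24 arrays. Only 3 of 218 spots of its probe were, 1 of 55 at 600 ppm and 2 of 54 at 1000 ppm. No fold change is given for it.

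Tnf, the gene of TNF itself, ranged from -1.66 to -0.49 in control rats (median -1.29), from -1.68 to -1.05 at 600 ppm (median -1.31), from -1.44 to -0.83 at 1000 ppm (median -1.17) and from -1.36 to -0.26 at 1500 ppm (median -0.99). Both rats above every control rat were females at 1500 ppm, but control females were also higher than control males (means of -0.80 and -1.55). The difference was -0.14 at 600 ppm, 0.00 at 1000 ppm and 0.29 at 1500 ppm (SE 0.21 each, exact permutation p = 0.543, 1.0 and 0.294). At 1500 ppm it was 0.48 in males (limma adjusted p = 0.3641) and 0.10 in females (limma adjusted p = 0.8907). Without control rat 22, which had the highest control value, the 1500 ppm difference was 0.43, with an unadjusted limma p-value under 0.05 and an adjusted p of 0.5992.

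The receptors of TNF differed in how much they varied. Tnfrsf1a, the widely expressed receptor TNFR1, was the steadiest of the 8 genes, with an SD between rats of 0.079 and a range of 0.31 over all 24 rats. Its mean was 1.71 ± 0.05 in control rats and 1.64 ± 0.08, 1.64 ± 0.10 and 1.65 ± 0.08 (SD, n = 6 each) at the 3 doses. The differences of -0.06, -0.06 and -0.05 had intervals within -0.18 to 0.06, and 5, 4 and 4 of 6 rats had lower levels than any control rat (exact permutation p = 0.128, 0.186 and 0.184). At 600 ppm 1 rat lay above every control rat. The control range was narrow, from 1.67 to 1.78, and the share of all genes with such counts was not counted. Tnfrsf1b, the receptor TNFR2 of immune and endothelial cells, had means of -0.18 ± 0.21, -0.27 ± 0.19, -0.29 ± 0.19 and -0.17 ± 0.26 (SD, n = 6 each). None of its differences, -0.09, -0.10 and 0.01 (SE 0.12 each), exceeded the spread between rats.

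Rela, the RelA (p65) subunit of NF-kB, had means of 1.07 ± 0.16, 1.03 ± 0.09, 1.07 ± 0.19 and 0.92 ± 0.16 (SD, n = 6 each). At 1500 ppm the difference was -0.15 (SE 0.09, exact permutation p = 0.136), and 3 of 6 rats had lower levels than any control rat. A second, dimmer probe gave 0.01, 0.09 and -0.17 (SE 0.22 each, exact permutation p = 0.987, 0.723 and 0.433).

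**Figure D3:**
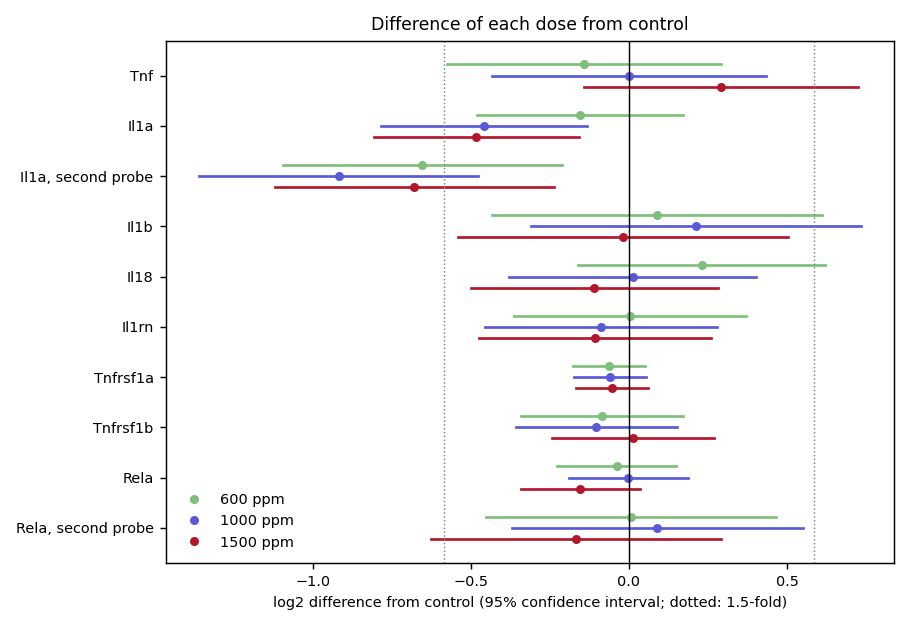
Log2 difference of each dose from control (x axis) with its 95% confidence interval for the 8 measured genes and the second probes of Il1a and Rela (y axis); dotted lines mark 1.5-fold. The intervals of Il1a at 1000 and 1500 ppm and of its second probe at all 3 doses lie below 0, and all other intervals span 0.

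Across the ordered doses, the Il1a level read from its brighter probe had a slope of -0.35 per 1000 ppm (SE 0.10, limma adjusted p = 0.3177). No slope was fitted for its second probe. The means of that probe were -2.51 in control rats and -3.17, -3.43 and -3.19 at 600, 1000 and 1500 ppm. The slopes of the other 7 genes lay between -0.10 for Il18 and 0.20 for Tnf, with no unadjusted limma p-value under 0.05. That threshold was passed by Il1a and by 8.49% of all genes, and an adjusted p-value of 0.05 by 0.0141% of them. Contrasts between the doses were added after the values were seen, again with the brighter probe. Il1a was -0.33 at 1500 against 600 ppm (limma adjusted p = 0.5946) and -0.02 at 1500 against 1000 ppm (95% confidence interval from -0.35 to 0.30). Tnf was 0.43 higher at 1500 than at 600 ppm, with an interval from -0.00078 to 0.86 (limma adjusted p = 0.5965).

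The sexes were compared over all doses. Il18 was lower in females than in males, with a log2 difference of -0.37 (SE 0.11, limma adjusted p = 0.02), the one gene of the 8 with an adjusted p-value under 0.05, where 24.9% of all genes passed. Rela was -0.14 (adjusted p = 0.07126) and Tnf 0.28 (adjusted p = 0.1457). Each slide held 1 sex, with 3 slides of males and 3 of females. With the slide as a random block beside sex, added after the values were seen, Il18 kept its difference of -0.37 (95% confidence interval from -0.65 to -0.09) with a limma adjusted p of 0.07522, above the threshold that 13.3% of all genes passed.

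Whether the change with dose differed between the sexes was tested by the interaction. No member passed an adjusted p-value of 0.05 at any dose, where 0%, 0% and 5.02% of all genes did. With an unadjusted p-value under 0.05, Il1rn had a female change less male change of -0.73 at 600 ppm (limma adjusted p = 0.953) and -0.72 at 1000 ppm (adjusted p = 0.477), and Tnf had -0.89 at 1000 ppm (adjusted p = 0.4624). Unadjusted, 4.99% and 9.41% of all genes passed 0.05 at these doses. The 3 females at 600 ppm (0.24, 0.25 and 0.27) and the 3 at 1000 ppm (0.10, 0.17 and 0.22) all had lower Il1rn levels than every control female (from 0.59 to 0.65). The share of all genes that separate 3 females from 3 in this way was not counted. The 3 males at 600 ppm had levels of 0.70, 0.75 and 0.77, beside -0.16, 0.56 and 0.70 in control males, and those at 1000 ppm 0.32, 0.47 and 1.13. At 1500 ppm the females had 0.04, 0.56 and 0.66, the last of them above every control female, and the female change less the male change was -0.18 (limma adjusted p = 0.7982).

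The 8 genes were next compared with each other across the 24 rats. Of 28 pairs, Il18 and Il1rn had the highest correlation, with a Pearson r of 0.61 (permutation p = 0.00159, Benjamini-Hochberg adjusted over 28 pairs 0.0445) and a Spearman rho of 0.66 (permutation p = 0.00063). Without the 2 rats farthest from the median of Il18, r was 0.53. Within males r was 0.82 and within females 0.24, and after the mean of each dose and sex was removed it was 0.63. Tnf and Il18 had an r of -0.55 (permutation p = 0.00538, adjusted 0.0753), which was -0.29 without the 2 farthest rats.

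The levels were also set against summed markers of 4 lists, in 32 relations examined after the values were seen. Il1b followed the summed level of the 4 measured neutrophil markers, with a Pearson r of 0.86 (permutation p = 1e-05, the smallest these permutations give, adjusted 0.00032) and a Spearman rho of 0.83. This r was 0.90 in males, 0.86 in females, 0.80 without the 2 farthest rats and 0.90 after the mean of each dose and sex was removed. Unlogged levels are added in the sum, so S100a9 and S100a8 (control means of 1.225 and 0.444) weigh most in it. Cxcr2 and Csf3r (-3.149 and -3.946) weigh little. The summed neutrophil level had a median of 3.877 in control rats (from 1.991 to 8.529), 5.888 at 600 ppm (from 3.001 to 6.462), 5.273 at 1000 ppm (from 3.626 to 12.45) and 3.863 at 1500 ppm (from 2.549 to 7.977), so the groups overlapped. One of the 4 markers, S100a8, a calcium-binding protein abundant in neutrophils, was called higher at 1000 ppm (0.71, limma adjusted p = 0.5483), as were 1.29% of all genes. The 3 genes most like Il1b among 11941 named genes were Nlrp12, Cxcr2 and S100a8, with r of 0.87, 0.86 and 0.86 over 24 rats, and 0.91, 0.88 and 0.89 after the mean of each dose and sex was removed. Cxcr2 is a chemokine receptor of neutrophils and Nlrp12 an intracellular sensor of myeloid cells; Cxcr2 and S100a8 are also 2 of the markers above.

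Il18 had an r of 0.67 with the macrophage markers (permutation p = 0.00037, adjusted 0.00395) and -0.75 with the T cell markers (permutation p = 2e-05, adjusted 0.00032). Within males these were 0.42 and -0.67, and within females 0.63 and -0.56. After the mean of each dose and sex was removed they were 0.31 and -0.46. These sums too add unlogged levels, so Cd68 weighs most among the macrophage markers and Cd3d and Cd3g among the T cell markers. Tnf had an r of 0.60 with the T cell markers (permutation p = 0.00205, adjusted 0.0164), which was 0.46 without the 2 farthest rats. The 3 genes most like Tnf were Bcl3, Phgdh and Tnfaip2, with r of 0.80, 0.79 and 0.78 over 24 rats, and 0.86, 0.73 and 0.77 after the mean of each dose and sex was removed. Bcl3 is a nuclear protein of the IkB family and Tnfaip2 a gene first described as induced by TNF, while Phgdh is an enzyme of serine synthesis.

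Il1a, read from its brighter probe only, had an r of 0.60 with the summed level of 10 early response genes such as Fos and Jun (permutation p = 0.00298, adjusted 0.0191). Such genes can follow handling of an animal. The Spearman rho was 0.36 (permutation p = 0.0811), and without the 2 rats farthest from the median of the sum r was 0.27. The value of r thus depended on those rats, although leaving out extreme rats narrows the range and can itself lower r. Within males r was 0.22 and within females 0.78, and after the mean of each dose and sex was removed it was 0.53. The sum adds unlogged levels, so the brightest of the 10 genes in control rats, Junb, Jun, Ier2 and Btg2, weigh most in it and Fos little. At 1500 ppm 7 of these 10 genes were called lower, as were 0.522% of all genes. At 1000 ppm 1 was called lower (Jun), as were 0.343% of all genes. Called or not, 9 of the 10 were lower than control at each dose, with medians of -0.45, -0.43 and -0.93 at 600, 1000 and 1500 ppm. At 1500 ppm their summed level was from 33.82 to 56.65 against 43.46 to 122.8 in control rats. The macrophage sum was from 4.271 to 5.839 at 1500 ppm and from 4.508 to 7.389 in control rats. Of the 5 tested markers, 5 were lower than control at 1500 ppm, 3 at 1000 ppm and 1 at 600 ppm, where 4 were higher, and 0 were called. The part of the early response or of macrophages in the Il1a difference was not tested.

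**Figure D4:**
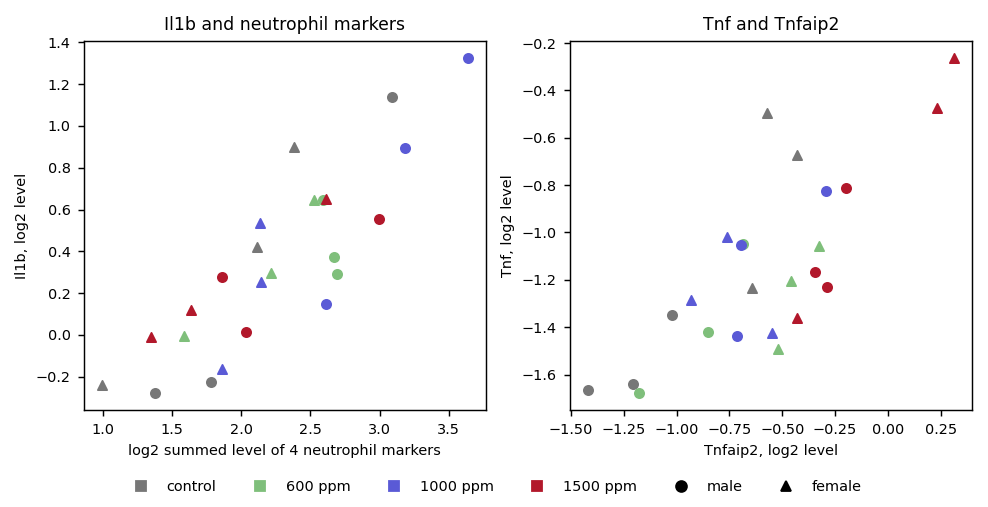
Left, log2 level of Il1b (y axis) against the log2 summed level of 4 neutrophil markers (x axis); right, log2 level of Tnf (y axis) against Tnfaip2 (x axis), 1 point per rat, colored by dose and shaped by sex. Il1b and the summed neutrophil markers rise together with r = 0.86 over the rats of all groups pooled, and the 2 rats with the highest Tnf are females at 1500 ppm.

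The other genes of the pathway were described by 4 lists. Of 20 receptors and adaptors, 17 were tested and 0 were called at any dose, with a median log2 difference of -0.04 at 1500 ppm beside 0.01 over all genes. The smallest p-values at 1500 ppm belonged to Irak2, a kinase that relays interleukin 1 receptor signals, Tab1, a partner of the kinase TAK1, and Traf2, a TNF receptor adaptor. Irak2 had a difference of -0.32 (SE 0.10, limma adjusted p = 0.4352), and 6 of 6 rats at 1500 ppm lay below every control rat, a separation seen in 0.48% of all genes. Tab1 was 0.18 (limma adjusted p = 0.6739) and Traf2 -0.16 (limma adjusted p = 0.7868).

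Of the 6 genes for processing and trapping of interleukins, all were tested and 0 were called. Casp1, the protease that cuts the precursors of interleukin 1 beta and 18, had a difference of -0.19 at 1500 ppm (SE 0.08, limma adjusted p = 0.6739), with 5 of 6 rats below every control rat. The share of all genes with such a count was not determined. The inflammasome genes Pycard and Nlrp3 had differences of -0.12 (limma adjusted p = 0.8283) and -0.09 (limma adjusted p = 0.9178).

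Of 12 further NF-kB subunits, inhibitors and IKK kinases, 9 were tested and 1 was called, lower at 1000 and 1500 ppm, as were 0.343% and 0.522% of all genes. It was Nfkbia, which encodes IkB-alpha, the inhibitor that NF-kB itself induces. Pooled over the sexes, its level was from 2.82 to 4.47 in control rats (median 3.60), from 2.91 to 3.75 at 600 ppm (median 3.17), from 2.62 to 3.46 at 1000 ppm (median 2.89) and from 2.75 to 3.30 at 1500 ppm (median 2.90), so the groups overlapped and the control rats were spread most. The differences were -0.63 and -0.65 (SE 0.24 each, limma adjusted p = 0.5155 and 0.5908), with an exact permutation p of 0.0779 and 0.0736. With the slide as a fixed block the differences were -0.71 and -0.53 and neither was called. The methods' t-test did not call the unchanged differences, and the unscaled series table gave -0.53, not called, at 1000 ppm. Leaving out 1 rat at a time it was called in 20 of 24 fits at 1000 ppm and 22 of 24 at 1500 ppm.

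The lower Nfkbia level at 1500 ppm was seen in males, whose means were also lower at 600 and 1000 ppm. The 3 control males had levels of 3.84, 4.25 and 4.47, and the 3 males at 1500 ppm had 2.75, 2.87 and 2.89, below each of them. The share of all genes that separate these males in this way was not counted. Control females (2.82, 2.85 and 3.36) and females at 1500 ppm (2.92, 3.00 and 3.30) overlapped. Fitted within each sex after the values were seen, the difference at 1500 ppm was -1.35 in males (SE 0.21, limma adjusted p = 0.002568) and 0.06 in females (95% confidence interval from -0.37 to 0.49). The share of all genes that passed 0.05 within each sex was not counted. Control males lay on 1 slide and the males at 1500 ppm on another, so dose and slide cannot be told apart there. The 3 control males lay above every other rat, and the male differences and the interactions at all doses use them. The female change less the male change was 1.41 (SE 0.29, limma adjusted p = 0.009631), in a comparison where 5.02% of all genes passed 0.05. It was 0.99 at 600 ppm and 0.73 at 1000 ppm (limma adjusted p = 0.8509 and 0.4542). At 1500 ppm the value was 1.89 with the slide as a fixed block (limma adjusted p = 0.1164).

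Of 16 NF-kB target genes, 14 were tested and 1 was called, Tnfaip2, higher at 1500 ppm, as were 0.701% of all genes. Its level was from -1.42 to -0.43 in control rats (median -0.83), from -1.18 to -0.33 at 600 ppm (median -0.60), from -0.93 to -0.30 at 1000 ppm (median -0.70) and from -0.43 to 0.31 at 1500 ppm (median -0.24). At 1500 ppm 5 of 6 rats were above every control rat, a count whose share over all genes was not determined. The difference was 0.76 (SE 0.18, limma adjusted p = 0.1818, exact permutation p = 0.00433). It was 0.51 with the slide as a fixed block, short of the call rule. Within the sexes the difference at 1500 ppm was 0.94 in males (limma adjusted p = 0.007969) and 0.59 in females (limma adjusted p = 0.101). In each sex the control rats lay on 1 slide and the 1500 ppm rats on another, so dose and slide cannot be told apart there. The share of all genes that passed 0.05 within each sex was not counted. At 1000 ppm the difference was 0.65 in males (limma adjusted p = 0.1409) and -0.20 in females (limma adjusted p = 0.7149). The chemokine gene Ccl2 had differences of 0.57 at 1000 ppm (limma adjusted p = 0.5871) and 0.60 at 1500 ppm (limma adjusted p = 0.7325), and was called in some other settings, while Cxcl1, a chemokine that draws neutrophils, and the adhesion gene Icam1 were 0.04 and 0.05 at 1500 ppm (limma adjusted p = 0.9834 and 0.9414). The median of the 14 genes at 1500 ppm was 0.05, beside 0.01 over all genes.

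**Figure D5:**
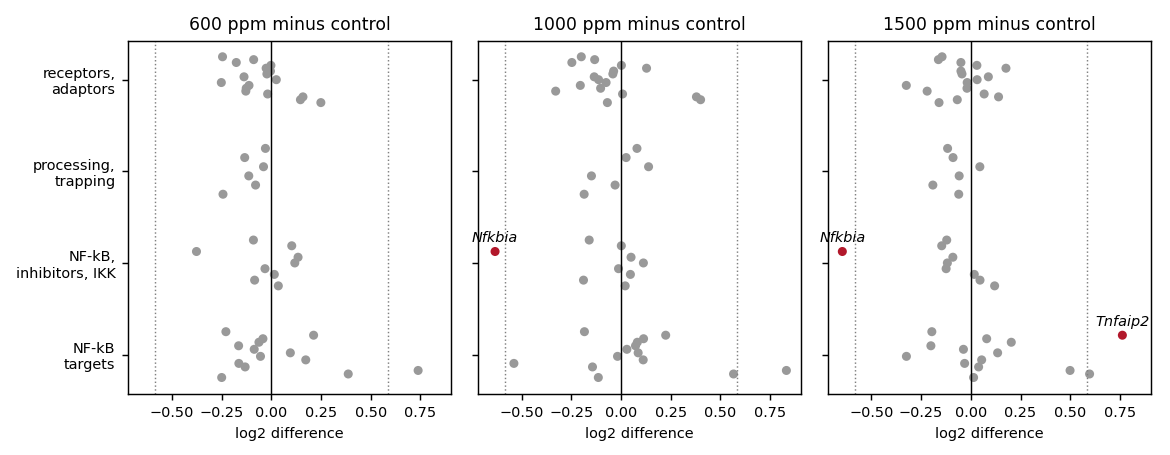
Log2 difference from control (x axis) at 600, 1000 and 1500 ppm of the tested genes of the 4 pathway lists (y axis, 1 point per gene); red points passed the call rule and dotted lines mark 1.5-fold. Nfkbia is called lower at 1000 and 1500 ppm and Tnfaip2 higher at 1500 ppm, and all other points are grey.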

How the data were processed

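Lung RNA of 24 rats in 4 dose groups was measured, with groups taken from the sample titles. The deposited intensities are one-colour signals from Agilent Feature Extraction 11.5.1.1, background-subtracted and detrended by that software, per the file headers, and not scaled between arrays. In the deposited table of the series at least 99.58% of the values of an array equal these intensities within 0.1%. Unflagged spots of a probe were averaged, and log2 signals were set relative to the 75th percentile of each array. Of 30367 probes, 60.44% carried an accession that a RefSeq table (GRCr8) links to a symbol, used for names and neighbors; promoter sequences come from RefSeq's GRCr8 table, which matched 10 of 10 members. A probe was tested where 5 or more of the 6 arrays of some group had it well above background, and a gene with several such probes was read from its brightest. R 4.3.3 with limma 3.58.1 (lmFit, eBayes) fitted 4 groups on all 24 arrays without covariates, with Benjamini-Hochberg adjustment over 21255 genes or unnamed probes; SE and intervals come from this fit. Exact permutation tests and correlations (100000 permutations) used Python 3.11.15 and numpy 2.4.6. The fit was also run on simulated data with independent noise for each array. Those data held no slide or sex structure, so they cannot show how slides affect the p-values. The members and lists were chosen with earlier results of these data known. From each pathway list, every gene called at any dose was named, or otherwise the 3 with the smallest p-value at 1500 ppm; Ccl2, Cxcl1 and Icam1 were named after their values were seen, and so were the genes of the lists of markers. Genes most like Tnf and Il1b were the 3 with the highest Pearson r. Alternatives were another background correction (normexp, offset 50), other scalings, filters, probe choices and tests, sex or slide as a covariate, slide as a random block, and leaving out each rat. The labels name separate rats. Precision is limited by the number of arrays.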

Additional observations from a re-analysis of the deposited data

Results flagged for a closer look

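In 32 groups of 6 rats, formed by 8 genes and 4 dose groups, 2 groups held a rat far from the others, both in Il1rn; chance alone gives about 1 such group in 20. Control rat 1, a male, had the lowest Il1rn level of its group (-0.16, where the other 5 lay between 0.56 and 0.70), with a gap of 0.838 of the range of the group. At 1000 ppm rat 12, a male, had the highest level (1.13, beside 0.10 to 0.47), with a gap of 0.638 of the range. The change of Nfkbia at 1500 ppm differed between the sexes, with a female change less male change of 1.41 on the log2 scale (limma adjusted p = 0.009631), from -1.35 in males and 0.06 in females. The control males lay on 1 slide and the males at 1500 ppm on another, and with the slide as a fixed block the value was 1.89 with a limma adjusted p of 0.1164.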

How the results depend on the processing

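Under the 12 other settings and 24 fits without 1 rat, Il1a kept a negative difference at every dose. The count of the 8 genes called was 1 (Il1a) at 1000 ppm with the mean of all detected probes and with the slide as a fixed block, and 1 (Il1a) at 1500 ppm with the slide block. The count with unadjusted p under 0.05 was 1 at 600 ppm without a filter (Il6) and with the mean of probes (Il1a), 0 at 1000 ppm in the series table, and 1 to 2 at 1500 ppm without 1 rat (2, with Tnf, without control rat 22). Genes of the 4 pathway lists called were 1 at 600 ppm with the slide block (Il18r1), 0 at 1000 ppm with the methods' t-test, the slide block or the adjusted p, and at 1500 ppm 1 with the methods' t-test and 0 with the slide block or the adjusted p. At 1500 ppm they were 3 (Ccl2, Nfkbia and Tnfaip2) with sex as a covariate and with control and 1 dose only, and the 1 gene called at 1000 ppm in the series table was Ccl2, not Nfkbia. Without 1 rat they were 0 to 2 at 1000 ppm and 1 to 3 at 1500 ppm; at 1000 ppm they were 0 without control rat 1 or 2 or 1000 ppm rat 31 or 33, and 2 without control rat 21 or 22 or 1000 ppm rat 12 or 32, and at 1500 ppm they were 1 without control rat 1 or 2. The genes that differed between the sexes were 1 to 2 (2, with Rela, without 600 ppm rat 8, 600 ppm rat 26 or 1500 ppm rat 37). Signs turned in small, uncalled differences. With the slide as a fixed block these were Il1rn (-0.021), Tnfrsf1a (0.012), Tnfrsf1b (3.25e-05) and Rela (0.07) at 600 ppm, Il18 (-0.11), Tnfrsf1a (0.032), Tnfrsf1b (0.044) and Rela (0.081) at 1000 ppm, and Il1rn (0.092) at 1500 ppm. With it as a random block they were Il1rn (-0.023) and Rela (0.016) at 600 ppm and Il18 (-0.055) and Rela (0.047) at 1000 ppm. Normexp gave Il1rn -0.054 at 600 ppm, Tnf -0.15 and Rela 0.046 at 1000 ppm and Tnfrsf1b -0.076 at 1500 ppm. Quantile normalization gave Il1rn -0.0017 at 600 ppm and Tnf -0.016 at 1000 ppm, and median scaling Tnf -0.0059. The series table gave Tnfrsf1a 0.0076 and Rela 0.031 at 600 ppm, Il1rn 0.016, Tnfrsf1a 0.043, Tnfrsf1b 0.0016 and Rela 0.10 at 1000 ppm, and Tnfrsf1b -0.053 at 1500 ppm. At 1000 ppm normexp moved the median of all genes by -0.129 and the series table by 0.109. The mean of probes gave Rela 0.044 at 1000 ppm, and its second probe 0.0055 and 0.09 at 600 and 1000 ppm. Without 1 rat, Il1b ranged from -0.025 to 0.26, Il1rn from -0.13 to 0.055 and Rela from -0.067 to 0.0080 at 600 ppm. At 1000 ppm Tnf ranged from -0.097 to 0.14, Il18 from -0.073 to 0.081 and Rela from -0.058 to 0.057, and at 1500 ppm Il1b from -0.13 to 0.15, Il18 from -0.23 to 0.013 and Tnfrsf1b from -0.059 to 0.082. The cause of these shifts was not tested. With the slide as a random block beside sex, 0 of the 8 genes differed between the sexes at an adjusted limma p under 0.05 (1, Il18, at an unadjusted p under 0.05). Sex cannot be fitted beside the slide as a fixed block. No paired analysis was possible because no rat number is shared between groups. Il6 was limited by signal over background.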
